A study of Drosophila melanogaster with 6 samples.

Results

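Oxidative phosphorylation is carried out in the inner mitochondrial membrane by 5 multi-subunit complexes, and 73 of the 11982 genes on the array belong to them by their symbols. The members are all genes whose symbol starts with ND- (complex I), Sdh (complex II), UQCR (complex III), COX (complex IV) or ATPsyn (complex V), read from probe sets paired with a single gene. Complex I contributed 32 members, complex II 7, complex III 6, complex IV 14 and complex V 14. By their symbols, 51 are canonical subunits, 21 are second copies of a subunit whose symbol ends in L or in L and a digit, called duplicates here (ND-MNLL is not one), and 1, Sdhaf3, is an assembly factor of complex II. The gene table used here lists 91 genes with these prefixes. The other 18, among them SdhA, UQCR-C1, UQCR-C2, ND-30, ND-49 and the mitochondrially encoded COX subunits, had no probe set of their own under the rule and were not analysed here.

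RNA was measured on 6 arrays of whole wing imaginal discs, the larval precursors of wing and thorax, from wall-climbing Drosophila melanogaster larvae of the last instar raised at 25 °C. Each sample pooled 30 discs, and 25 ng of its total RNA was amplified. There were 3 groups of 2 arrays. GFP RNAi discs carried w1118 and the act5Cgal4 driver with a hairpin against GFP, a sequence flies lack, and served as the knockdown control. LID RNAi discs carried the lidk06801 allele and a hairpin against lid under the same driver. Wild type discs are titled so and have no RNAi in their labels, yet their background field names w1118 with act5Cgal4>RNAi, which was not resolved here. The act5C promoter is active in all tissues of the larva, so every cell type of the disc could carry the knockdown. Allele and hairpin come together in LID RNAi and cannot be told apart. The lid gene, now Kdm5, codes for an enzyme that removes methyl groups from lysine 4 of histone H3, a mark of active promoters when trimethylated.

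In the respiratory chain, complexes I and II pass electrons from NADH and succinate to ubiquinone, complex III passes them to cytochrome c, and complex IV passes them to oxygen. Complexes I, III and IV pump protons, and complex V, the ATP synthase, uses the proton gradient to make ATP. Most subunits are encoded in the nucleus and are needed in fixed proportions, while the catalytic centres of complexes III and IV also hold subunits encoded by the mitochondrial genome. In flies, many of the nuclear subunit genes have a second copy whose transcripts are largely restricted to the male germ line.

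Values are log2 units from robust multi-array averaging, and a difference of 1 is a doubling. Kdm5 read 10.32 and 10.45 on the arrays of GFP RNAi, 8.36 and 8.04 on those of LID RNAi and 10.42 and 10.33 on those of wild type, so both LID RNAi arrays lay far below the other 4. LID RNAi replicate 2 had the highest 3′ minus 5′ probe signal of GAPDH, at 3.54 against 2.67 to 3.17 on the 5 remaining arrays. For Act5C it was 1.45 there and 1.09 to 1.34 on the others, a smaller gap. Wing disc genes were above background on all arrays for 16 of 16 measured markers. Of 26 testis markers 8 were above it on all arrays and 13 on none. The summed linear signal of the testis markers was 2089 and 2029 in LID RNAi, against 2206 to 2386 on the 4 control arrays. Summed markers of 2 other cell types were higher in LID RNAi. The summed linear signal of 20 haemocyte markers was 34420 and 29870 in LID RNAi, against 17960 to 25150 on the 4 control arrays, and that of 19 muscle markers was 25380 and 23400 against 20190 to 22070. The haemocyte regulator gene lz was within background on all control arrays and above it in LID RNAi, at 5.47 and 5.75. Against wild type lz and the muscle gene sls rose and the haemocyte gene PPO3 fell, and of 13 salivary gland markers ng1 rose against both controls (limma adjusted p under the threshold of 0.05). Of 11 fat body markers 0 passed in limma, with 0 and 2 at an unadjusted p under 0.05 against GFP RNAi and wild type. Of all probe sets 12.4% and 16.9% had such a p. The markers stand for haemocytes, muscle, testis, salivary gland and fat body. The part of these cells in the values below was not tested, and in whole discs fewer cells of a type and less RNA per cell cannot be told apart.

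Transcripts of nearly all canonical subunits were above background in all 3 groups. Background was set at 4.82, the 95% point of 27 probe sets for Bacillus subtilis transcripts. On all 6 arrays 57 members exceeded it, 11 exceeded it on none and 5 on some. Of the 51 canonical subunits 50 exceeded it throughout, with array values from 9.07 to 13.51. The exception was ND-B8, a complex I subunit, which read between 3.03 and 3.25 on all 6 arrays. The 50 subunits and Sdhaf3 are called the core members here. They comprise 26 members of complex I, 4 of complex II, 4 of complex III, 7 of complex IV and 10 of complex V. Levels of different genes were not set against each other, because probes differ in their response.

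Core members varied little. The range of a core member over the 6 arrays had a median of 0.16. It was 0.39 over the 12912 probe sets with a mean above background and 0.061 over 41 cytosolic ribosomal protein genes. These sets were not matched for signal level. Its median was 12.42 for core members and 6.37 over all probe sets tested, and the part of the level in the ranges was not tested. The narrowest range among core members was that of ND-MLRQ, an accessory subunit, at 0.027. Its values were 13.26 and 13.28 in wild type discs, 13.27 and 13.27 in GFP RNAi discs and 13.27 and 13.28 in LID RNAi discs, and the groups overlapped throughout. SdhB, the iron-sulphur subunit of complex II, spanned 0.55.

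Part of the remaining variation followed single arrays. Taken as deviations from each gene's own mean over the 6 arrays, the core members had a median of -0.047 on GFP RNAi replicate 1 and -0.014 on replicate 2. The median was -0.005 on LID RNAi replicate 1 and 0.059 on replicate 2, and 0.009 and -0.008 on the wild type arrays. On LID RNAi replicate 2, the array with the highest 3′ minus 5′ signals, 45 of 51 core members lay above their own mean and 25 had their highest value. On GFP RNAi replicate 1, 8 lay above their own mean and 24 had their lowest value. Over all 18769 probe sets tested, 8487 lay above their own mean on LID RNAi replicate 2 and 8377 on GFP RNAi replicate 1. The heat map of core members by array shows this as a red column for LID RNAi replicate 2 and a blue one for GFP RNAi replicate 1. The part of the 3′ signal in the members' values was not tested.

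**Figure D1:**
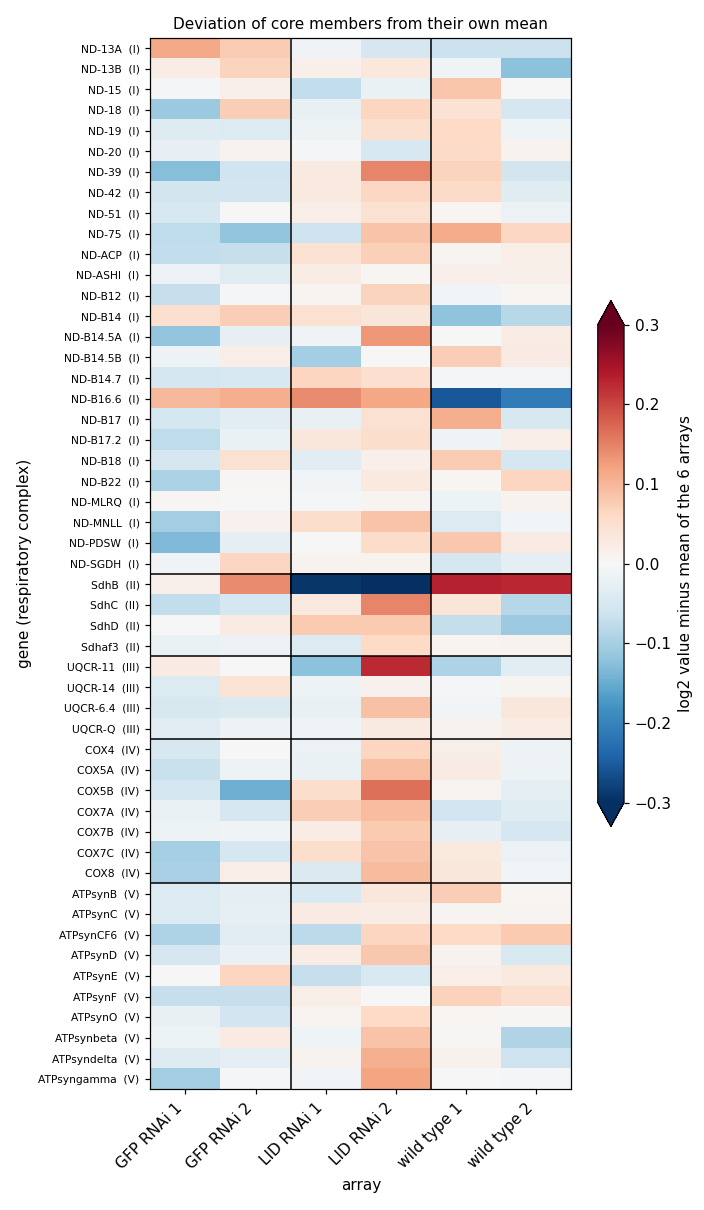
Each row is 1 of the 51 core members, grouped by complex, and each column 1 of the 6 arrays. Colour gives the log2 value minus the gene's mean over the 6 arrays, with colours saturating at 0.3. SdhB is the row with both LID RNAi arrays darkest blue, ND-B16.6 the row with both wild type arrays blue, and most rows are red on LID RNAi replicate 2.

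The comparison of LID RNAi with GFP RNAi, which share the driver, asks how these genes differ in discs with knockdown of lid. No member passed: limma called 0 of 73 at a Benjamini-Hochberg adjusted p under 0.05, where it called 0.469% of all probe sets, and 3 members had an unadjusted p under 0.05 (SdhB, ATPsynbetaL and ATPsynepsilonL), where 12.4% of all probe sets had one. The lowest adjusted p of a member was 0.166, for SdhB. Differences were small and mostly above 0. The median over the 73 was 0.057, against 0.009 over all probe sets, and 54 of 73 lay above 0, against 52.1% of all probe sets. Without LID RNAi replicate 2 the count above 0 was 47, and with each array's median subtracted it was 63. That subtraction also moved the median over all probe sets to 0.044, and their share above 0 under it was not counted. For 34 members both LID RNAi arrays lay above both GFP RNAi arrays, where 21.2% of all probe sets did so, and below both for 7, where 20.7% did. The members share the same 6 arrays, so these counts do not come from independent observations.

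Against wild type, LID RNAi discs had 1 member past the threshold, SdhB, which fell. It is 1 of 73 members, where limma called 2.34% of all probe sets, so the count was near the background. At an unadjusted p under 0.05 there were 7 members, where 16.9% of all probe sets had one. The median over the 73 was 0.023, against -0.009 over all probe sets, and 44 of 73 lay above 0, against 48.0% of all probe sets. That count was 35 without LID RNAi replicate 2 and 59 with each array's median subtracted, which also moved the median over all probe sets to 0.064. For 23 members both LID RNAi arrays lay above both wild type arrays, where 20.7% of all probe sets did so, and below both for 12, where 26.4% did.

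Between GFP RNAi and wild type, both without knockdown of lid, the differences lay mostly below 0. This comparison and LID RNAi minus GFP RNAi share the GFP RNAi arrays with opposite sign, so their opposite senses are not independent. No member passed in limma, where 0.863% of all probe sets were called, and 2 members had an unadjusted p under 0.05 (ATPsynepsilonL and ND-B16.6), where 11.4% of all probe sets had one. The lowest adjusted p was 0.0826, for ATPsynepsilonL. The median over the 73 was -0.04, against -0.018 over all probe sets, and 22 of 73 lay above 0, against 45.2% of all probe sets. With each array's median subtracted, 34 lay above 0 and the median was -0.003, against 0.019 over all probe sets. Both GFP RNAi arrays lay above both wild type arrays for 9 members, where 19% of all probe sets did so, and below both for 28, where 26.7% did.

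Against both controls at once, limma called 0 of 73 members, where 0.325% of all probe sets were called with the same sign in both. SdhB, ATPsynbetaL and ATPsynepsilonL had an unadjusted p under 0.05 in both, the last with opposite signs. Of all probe sets 12.4% had such a p against GFP RNAi and 16.9% against wild type. The share with one in both was not counted, so these members are not set against a background. Both comparisons share the LID RNAi arrays and are not independent. Both LID RNAi arrays lay above all 4 control arrays for 17 members, where 10.6% of all probe sets did so. These were ND-51, ND-ACP, ND-B12, ND-B14.7, ND-B16.6, ND-B17.2 and ND-MNLL of complex I, SdhD of complex II, COX5B, COX5BL, COX7A, COX7B and COX7C of complex IV, and ATPsynC, ATPsynD, ATPsynGL and ATPsynO of complex V. Both lay below all 4 for 5 members, where 12.8% of all probe sets did so: ND-15, SdhB, COX7AL2, ATPsynE and ATPsynbetaL. No member of complex III was among either. ATPsynGL was within background on all 6 arrays, so its order is not told from background. COX7AL2 was within it on both LID RNAi arrays and on GFP RNAi replicate 2.

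**Figure D2:**
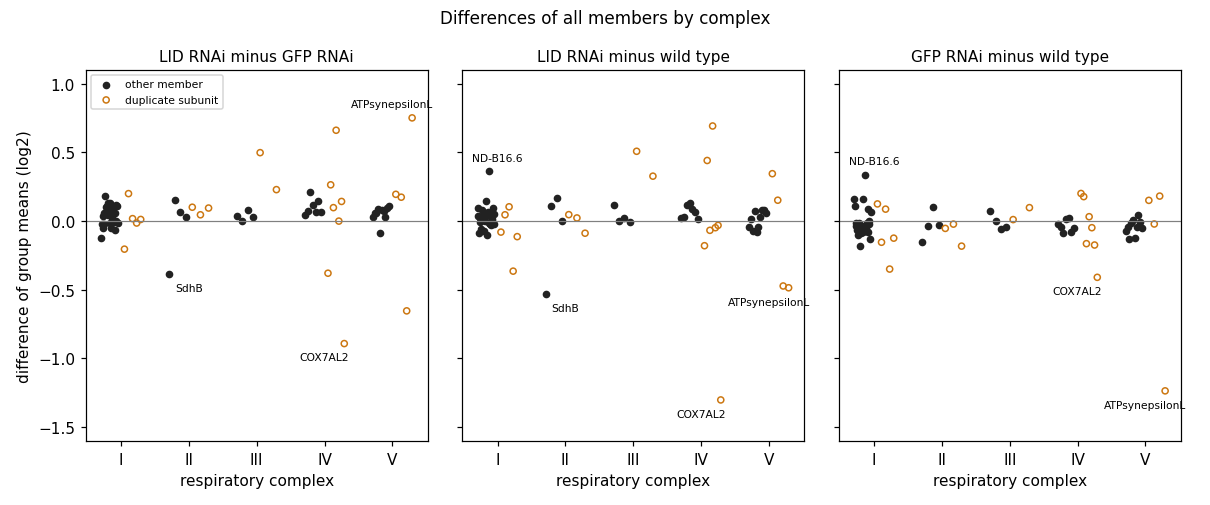
Each point is 1 of the 73 members, placed by complex, and the vertical axis gives the difference of group means in log2 for each of the 3 comparisons. Filled points are canonical subunits and Sdhaf3, open points duplicates. Filled points lie close to 0 apart from SdhB and ND-B16.6, and the open points of complexes IV and V spread most.

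The precision for core members was high enough to bound the changes. The half-width of the 95% interval of a core difference ran from 0.17 to 0.34, with a median of 0.19. The whole interval lay within a 1.5-fold change in either direction for 50 of 51 core members between LID RNAi and GFP RNAi, for 50 between LID RNAi and wild type, and for 51 between GFP RNAi and wild type. For the 21 duplicates these counts were 12, 9 and 13. The exception among the core members was SdhB in both comparisons with LID RNAi. The bounds hold for the probe set taken for each gene, and a dimmer second probe set of COX7C differed more, as given further below. The error behind these intervals pools the spread between replicate arrays over the 3 groups. In limma it is also drawn towards a variance estimated from all 18769 probe sets. For ATPsynC the SDs were 0.011 in GFP RNAi, 0.001 in LID RNAi and 0.001 in wild type, yet the SE of its differences was 0.065. The half-widths therefore do not measure the spread between replicates alone. Whether replicates came from separate dissections is not stated in the labels.

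Complex II, succinate dehydrogenase, also belongs to the citric acid cycle. Its catalytic part is a flavoprotein and SdhB, which carries the electrons over iron-sulphur clusters to the membrane anchors SdhC and SdhD, where ubiquinone binds. Over its 4 core members the median was 0.048 for LID RNAi minus GFP RNAi, 0.055 for LID RNAi minus wild type and -0.034 for GFP RNAi minus wild type. Over all 7 members, of which 3 were within background, the medians were 0.067, 0.022 and -0.038, and the second was -0.051 without LID RNAi replicate 2. SdhB read 10.92 and 10.89 on the LID RNAi arrays, 11.22 and 11.35 on the GFP RNAi arrays and 11.44 and 11.43 on the wild type arrays. Both LID RNAi arrays lay below all 4 control arrays, and the GFP RNAi arrays lay below the wild type arrays. SdhB fell by 0.53 ± 0.08 (SE, n = 2 arrays per group) against wild type, or 1.45-fold (limma adjusted p = 0.0499). Against GFP RNAi the difference was -0.39 ± 0.08 (SE), or 1.31-fold lower, and it did not pass (limma adjusted p = 0.166). GFP RNAi minus wild type was -0.15 (adjusted p = 0.571). The call against wild type lay at the edge of the threshold and did not survive the removal of any 1 array, which gave differences from -0.55 to -0.52. Without any 1 array limma also called fewer of all probe sets in that comparison, so the loss was not particular to SdhB.

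The membrane anchors had their highest group mean in LID RNAi. SdhC read 11.13 and 11.15 on the arrays of GFP RNAi, 11.23 and 11.35 on those of LID RNAi and 11.24 and 11.12 on those of wild type, and LID RNAi minus GFP RNAi was 0.15 (limma adjusted p = 0.578). SdhD read 11.99 and 11.96 in wild type discs, 12.06 and 12.09 in GFP RNAi discs and 12.14 and 12.14 in LID RNAi discs. LID RNAi was highest for SdhD and wild type lowest, without overlap, with LID RNAi minus wild type at 0.17 (limma adjusted p = 0.306). Sdhaf3, which guards the iron-sulphur clusters of SdhB during assembly, differed by 0.028 from GFP RNAi and by -0.001 from wild type. The difference between SdhB and the anchors was not itself tested.

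**Figure D3:**
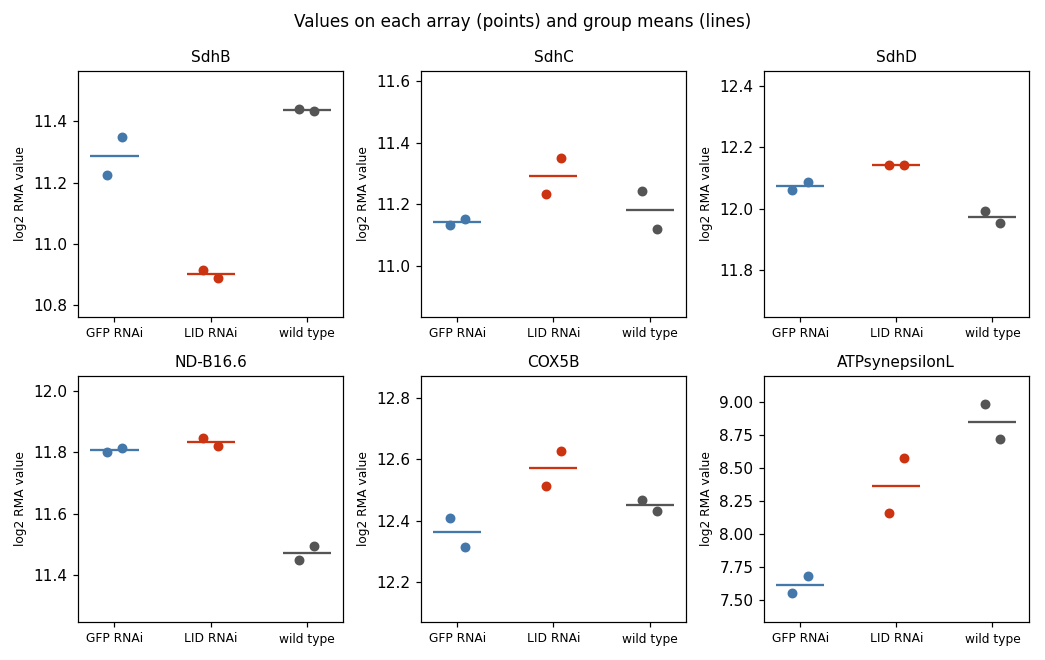
Points are the log2 values of each array and horizontal lines the group means, for 6 members. The vertical axes do not start at 0 and the span of ATPsynepsilonL is wider than that of the other 5. SdhB is lowest in LID RNAi, ND-B16.6 is lowest in wild type, and ATPsynepsilonL runs from about 7.62 in GFP RNAi over 8.36 in LID RNAi to 8.85 in wild type.

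Complex I oxidises NADH and is the largest of the complexes. The median over its 32 members was 0.04 for LID RNAi minus GFP RNAi, 0.029 for LID RNAi minus wild type and -0.041 for GFP RNAi minus wild type. Of the 26 core members 17 were above 0 against GFP RNAi and 16 against wild type. No member of the complex passed in any comparison. At an unadjusted p under 0.05 limma gave ND-B16.6 for LID RNAi against wild type and for GFP RNAi against wild type.

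ND-B16.6, the fly counterpart of the mammalian protein GRIM-19, was the core member of complex I with the widest separation between groups. It read 11.85 and 11.82 on the LID RNAi arrays, 11.80 and 11.81 on the GFP RNAi arrays and 11.45 and 11.50 on the wild type arrays. The wild type arrays lay below the 4 RNAi arrays, and the RNAi arrays lay close together. LID RNAi minus wild type was 0.36 ± 0.07 (SE, limma adjusted p = 0.0837) and GFP RNAi minus wild type 0.33 ± 0.07 (SE, limma adjusted p = 0.156). The first passed when probe sets within background were left out of the fit (adjusted p = 0.0466), and both passed with a variance trend and robust moderation (adjusted p = 0.0123 and 0.0241). LID RNAi minus GFP RNAi was 0.025 (adjusted p = 0.922). ND-B14, an accessory subunit of the matrix arm, was also lowest in wild type without overlap, with differences from it of 0.14 in LID RNAi and 0.16 in GFP RNAi.

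The electron entry subunits of complex I differed less. ND-75, the largest of the iron-sulphur subunits, read 10.54 and 10.50 on the arrays of GFP RNAi, 10.56 and 10.71 on those of LID RNAi and 10.73 and 10.68 on those of wild type. The GFP RNAi arrays were lowest without overlap, and GFP RNAi minus wild type, at -0.185, was the lowest among the core members of all complexes. ND-51, the flavin-binding subunit that takes electrons from NADH, read 12.08 and 12.05 in wild type discs, 12.03 and 12.07 in GFP RNAi discs and 12.09 and 12.12 in LID RNAi discs. Its LID RNAi arrays lay above the other 4, and all 6 lay within 0.093.

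Among the accessory subunits, ND-39 had the highest difference from GFP RNAi, at 0.18 (limma adjusted p = 0.519), with 11.04 and 11.11 in GFP RNAi and 11.19 and 11.31 in LID RNAi. ND-B14.5A followed at 0.13. ND-13A, an accessory subunit of the matrix arm, was lower in LID RNAi than in GFP RNAi by 0.13, and both its GFP RNAi arrays lay above the other 4. ND-B14.5B was lower in LID RNAi than in wild type by 0.10. ND-ACP, the mitochondrial acyl carrier protein, differed from GFP RNAi by 0.13. Its other 2 probe sets gave 0.16 and 0.091 there, but -0.068 and -0.005 against wild type where the member probe set gave 0.045.

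Complex III hands electrons from ubiquinol to cytochrome c. Its 6 members here are accessory subunits and their copies, since the core proteins UQCR-C1 and UQCR-C2 were not analysed here. The median was 0.059 for LID RNAi minus GFP RNAi, 0.067 for LID RNAi minus wild type and 0.005 for GFP RNAi minus wild type. Those medians rest on the 2 duplicates, because over the 4 core members they were 0.036, 0.009 and -0.021. UQCR-14 differed by -0.002, -0.003 and -0.001 in the 3 comparisons, and UQCR-Q by 0.032, -0.009 and -0.041. UQCR-6.4 differed from GFP RNAi by 0.079. UQCR-11, the hinge protein of the complex, read 9.07 on LID RNAi replicate 1 and 9.42 on replicate 2, the lowest and the highest of its 6 arrays, so its difference from wild type of 0.11 was smaller than the gap between replicates.

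Complex IV, cytochrome c oxidase, passes the electrons to oxygen. Its 7 core members, nuclear subunits that surround the mitochondrially encoded centre, were above 0 in 7 of 7 cases against GFP RNAi and in 7 of 7 against wild type, with core medians of 0.075 and 0.063. All 7 had their highest value on LID RNAi replicate 2, and without that array 6 of 7 were above 0 against GFP RNAi and 4 of 7 against wild type. None passed, and 0 had an unadjusted p under 0.05 in limma. Over all 14 members the medians were 0.086 and 0.026, and -0.047 for GFP RNAi minus wild type. Without LID RNAi replicate 2 the median over the 14 was 0.03 against GFP RNAi and -0.023 against wild type.

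COX5B, a zinc-binding subunit on the matrix side, had the largest core difference from GFP RNAi of all complexes apart from SdhB. It read 12.51 and 12.63 on the LID RNAi arrays, 12.41 and 12.31 on the GFP RNAi arrays and 12.47 and 12.43 on the wild type arrays. The groups did not overlap and stood in the order LID RNAi, wild type, GFP RNAi. LID RNAi minus GFP RNAi was 0.21 ± 0.08 (SE, limma adjusted p = 0.412) and LID RNAi minus wild type 0.12 (adjusted p = 0.546). COX7A read 13.25 and 13.22 on the arrays of GFP RNAi, 13.34 and 13.36 on those of LID RNAi and 13.21 and 13.23 on those of wild type. LID RNAi was the group apart for COX7A, at 0.12 and 0.13 above the controls (adjusted p = 0.577 and 0.422). COX7C was 0.14 above GFP RNAi and 0.063 above wild type, but 0.43 and 0.60 with the mean over its 2 probe sets (limma adjusted p = 0.233 and 0.0775). The assembly nucleus subunits COX4 and COX5A differed by 0.047 and 0.075 from GFP RNAi and by 0.022 and 0.03 from wild type, and their groups overlapped.

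Complex V makes ATP with a rotating central stalk inside a catalytic head. Its 14 members had medians of 0.076, 0.022 and -0.031 in the 3 comparisons, and 9 of its 10 core members were above 0 against GFP RNAi, or 6 of 10 without LID RNAi replicate 2. The catalytic subunit ATPsynbeta read 12.76 and 12.66 in wild type discs, 12.74 and 12.78 in GFP RNAi discs and 12.74 and 12.84 in LID RNAi discs, and its groups overlapped in all comparisons. A second probe set for ATPsynbeta gave the opposite sign against wild type, at -0.056 where the member probe set gave 0.079. ATPsyngamma, the rotor shaft, differed by 0.11 from GFP RNAi, and ATPsyndelta, beside it in the stalk, by 0.092. ATPsynO, the stator protein that confers oligomycin sensitivity, differed by 0.072 and 0.028 from GFP RNAi and wild type.

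The members of the membrane part and the peripheral stalk of complex V differed by little. No member of complex V passed in limma in any comparison, and differences between members were not tested. ATPsynC, the subunit of the proton-driven ring, read 13.51 and 13.51 on the LID RNAi arrays, 13.44 and 13.46 on the GFP RNAi arrays and 13.49 and 13.49 on the wild type arrays. LID RNAi was highest, wild type next and GFP RNAi lowest, without overlap, within a total range of 0.064. ATPsynE, which takes part in pairing of the enzyme in the membrane, read 12.59 and 12.65 on the arrays of GFP RNAi, 12.52 and 12.54 on those of LID RNAi and 12.61 and 12.62 on those of wild type. LID RNAi was lowest without overlap, with differences of -0.091 and -0.082 (limma adjusted p = 0.677 and 0.625). For ATPsynF the differences of LID RNAi from GFP RNAi and wild type were 0.081 and -0.046. The peripheral stalk subunit ATPsynCF6 was lowest in GFP RNAi, at -0.13 against wild type.

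The duplicates were mostly not told from background. All 3 group means lay within it for 13 of 21, and they lay above it for 6: ND-20L, UQCR-11L, COX4L, COX5BL, ATPsynbetaL and ATPsynepsilonL. COX7AL2 and ND-51L2 had some group means above it. The 13 were ND-24L, ND-51L1, ND-B14.5AL, SdhAL, SdhBL, SdhCL, UQCR-14L, COX6AL, COX6AL2, COX6CL, COX7AL, ATPsynCF6L and ATPsynGL. No single difference is given for them, although they count in the medians over all members. Of these 13, 1 or 2 arrays exceeded the limit for COX6AL2, COX7AL and ND-51L1 and none for the others. COX6AL2 read 5.39 on LID RNAi replicate 2 and at most 4.38 on the other 5 arrays.

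**Figure D4:**
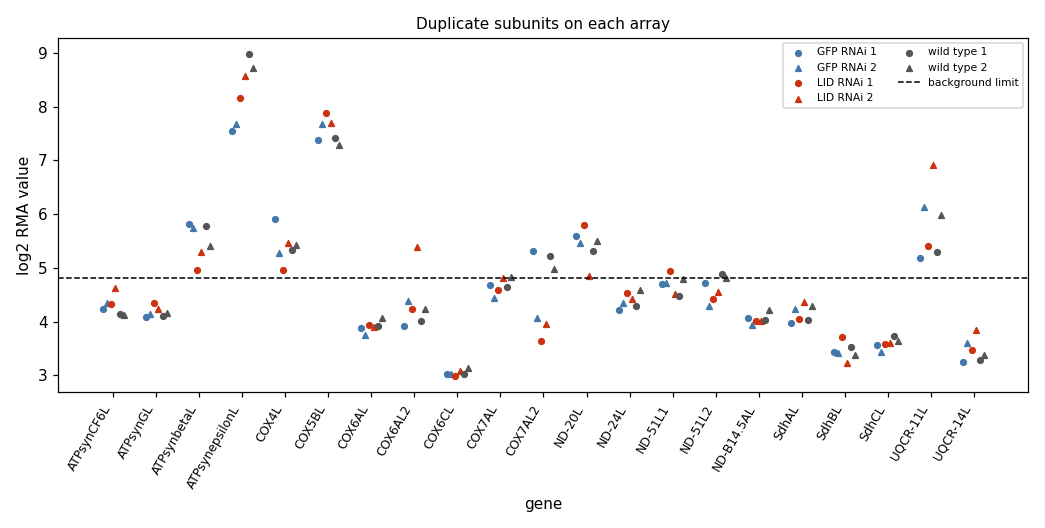
Log2 values of the 21 duplicates on each array, with colour for the group and shape for the replicate number. The dashed line is the background limit of 4.82. ATPsynepsilonL and COX5BL lie well above the line on all arrays, and the triangles of UQCR-11L lie above its circles in every group.

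ATPsynepsilonL, a copy of the epsilon subunit of the central stalk, had the largest difference between groups among the 57 members above background on all arrays. It read 8.98 and 8.72 in wild type discs, 7.55 and 7.68 in GFP RNAi discs and 8.16 and 8.57 in LID RNAi discs. The groups did not overlap, with GFP RNAi lowest and wild type highest. GFP RNAi minus wild type was -1.24 ± 0.18 (SE), or 2.36-fold lower (limma adjusted p = 0.0826). It passed with a variance trend and robust moderation (adjusted p = 0.0345) and with array weights (adjusted p = 0.0437). Those weights were equal for both arrays of a group, at 1.165 in GFP RNAi, 0.672 in LID RNAi and 1.277 in wild type. They therefore set groups apart and not single arrays. LID RNAi minus GFP RNAi was 0.75 (limma adjusted p = 0.213) and LID RNAi minus wild type -0.49 (adjusted p = 0.274). The canonical epsilon subunit, encoded by sun, differed by 0.032, -0.054 and -0.086 in the same comparisons.

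COX5BL, the copy of COX5B, read 7.88 and 7.70 on the LID RNAi arrays, 7.38 and 7.68 on the GFP RNAi arrays and 7.42 and 7.28 on the wild type arrays. Both LID RNAi arrays lay above the 4 control arrays, by 0.26 and 0.44 in the means (limma adjusted p = 0.549 and 0.221). ATPsynbetaL read 5.82 and 5.74 on the arrays of GFP RNAi, 4.95 and 5.29 on those of LID RNAi and 5.78 and 5.41 on those of wild type. Both LID RNAi arrays were lowest, with differences of -0.65 and -0.47 (adjusted p = 0.261 and 0.283).

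COX7AL2 read 5.22 and 4.97 in wild type discs, 5.32 and 4.06 in GFP RNAi discs and 3.64 and 3.96 in LID RNAi discs. Only 3 of its 6 arrays exceeded background, its GFP RNAi replicates fell on both sides of the limit, and its probe set is of a type that can match more than 1 transcript. UQCR-11L read 5.40 and 6.91 on the LID RNAi arrays, 5.18 and 6.13 on the GFP RNAi arrays and 5.30 and 5.99 on the wild type arrays. Replicate 2 was higher in each group, by more than any group difference. ND-20L and COX4L overlapped between all groups, with differences from GFP RNAi of -0.205 and -0.38. ND-51L2 was above the limit only on wild type replicate 1.

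Other genes of the pathway were counted from lists chosen for this report. Subunits of these complexes under other symbols numbered 8, and limma called 0 of them in any comparison. For LID RNAi against wild type 1 had an unadjusted p under 0.05, where 16.9% of all probe sets had one. RFeSP, the Rieske iron-sulphur protein of complex III, read 10.94 and 10.92 on the arrays of GFP RNAi, 11.05 and 11.16 on those of LID RNAi and 10.82 and 10.81 on those of wild type. LID RNAi was highest and wild type lowest without overlap, at 0.17 and 0.29 (limma adjusted p = 0.459 and 0.155). The ATP synthase alpha subunit gene blw differed by 0.059 and 0.074. Cyt-c1L, the copy of Cyt-c1, was within background on all arrays.

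Of 10 measured electron carriers and exchange proteins of the inner and outer membrane, 2 fell against wild type and 0 passed against GFP RNAi. Of all probe sets limma called 2.34% and 0.469% in these comparisons. Ucp4B, of the uncoupling protein family, read 8.28 and 8.24 in wild type discs, 8.13 and 8.27 in GFP RNAi discs and 7.54 and 7.41 in LID RNAi discs. Its LID RNAi arrays were lowest, at -0.73 against GFP RNAi (limma adjusted p = 0.0697) and -0.79 against wild type (adjusted p = 0.0302). Porin2, a copy of the outer membrane channel, read 6.57 and 6.86 on the LID RNAi arrays, 7.21 and 7.16 on the GFP RNAi arrays and 7.81 and 7.73 on the wild type arrays. It fell by 1.05 against wild type (limma adjusted p = 0.0308), with GFP RNAi between the other groups.

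Of all probe sets 12.4% and 16.9% had an unadjusted p under 0.05 in limma for LID RNAi against GFP RNAi and wild type. Of 14 measured assembly factors limma called 0 in either comparison with LID RNAi, with 3 at an unadjusted p under 0.05 in each. Ttc19, a factor of complex III, had the largest differences, at -0.625 and -0.69 (adjusted p = 0.143 and 0.0667), and sicily, a factor of complex I, stood at -0.33 against GFP RNAi. Cox17, the copper chaperone of complex IV, stood at 0.50 against wild type (adjusted p = 0.0957). Of 16 citric acid cycle genes limma also called 0, with 1 and 2 at an unadjusted p under 0.05 against GFP RNAi and wild type. Of 18 genes of mitochondrial gene expression it called 0, with 2 and 4. The largest differences from GFP RNAi there were those of Fum2, a fumarase gene, at -0.365, and the protease gene Lon, at 0.295.

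Among 11 regulators of respiratory genes Kdm5 alone passed, and it fell by 2.19 against GFP RNAi and by 2.17 against wild type (limma adjusted p = 0.0309 and 0.00877). The second largest difference from GFP RNAi in that list was that of the nuclear receptor gene Hr38, at -0.30. Of 11 glycolysis genes 1 rose in LID RNAi against wild type, where limma called 2.34% of all probe sets. It was Pfk, the phosphofructokinase gene, which rose by 0.64 (limma adjusted p = 0.0291), with GFP RNAi 0.505 above wild type as well. Glycolysis genes had medians of 0.11, 0.15 and 0.11 in the 3 comparisons.

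Mitochondrial ribosomal protein genes, which serve translation of the mitochondrially encoded subunits, shared the low values on the GFP RNAi arrays. Over 69 of them the median was 0.079 for LID RNAi minus GFP RNAi, -0.014 for LID RNAi minus wild type and -0.083 for GFP RNAi minus wild type, and limma called 0 in each, with 8, 2 and 5 at an unadjusted p under 0.05. Over 41 cytosolic ribosomal protein genes the medians were -0.022, -0.005 and 0.013. The members' medians of 0.057, 0.023 and -0.04 lay between those of the 2 ribosomal sets in the comparisons with GFP RNAi and above both for LID RNAi minus wild type. No test of these differences between sets was made.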

How the data were processed

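The authors' deposited table holds log2 values for 18952 probe sets on 6 arrays, credited to RMA in the submitters' processing notes, per the labels. The version of RMA and the chip definition are not given in the sources used here, and the values were used as deposited. Leaving aside 183 manufacturer controls, 18769 probe sets entered the tests, of which 13647 had 1 gene symbol, 402 several and 4720 none. The 73 members had 81 probe sets, and 6 genes had more than 1, of which the one with the highest mean over the 6 arrays was taken. Another 4 probe sets with several symbols were set aside, and 11 members rest on a probe set type that can match more than 1 transcript.

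The 3 group means were estimated jointly from the 6 arrays using limma 3.58.1 (R 4.3.3; two-sided, 3 residual degrees of freedom, prior 1.77), and p-values were adjusted by Benjamini-Hochberg over all 18769 probe sets of a comparison, with a threshold of 0.05. The fit was tested on simulated data. Samples were grouped by title. The labels do not say whether arrays of a group are separate dissections, so p-values may measure technical spread only, and 2 arrays per group limit the precision. Background is the 95% point of 27 Bacillus subtilis control probe sets (median 3.27). Symbols of all 73 members were current in the gene table. No sequences are shown.

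The members and lists were chosen with earlier results of these data known. Genes were named by rule: members past the threshold, the 2 members per complex and comparison with the largest rise and fall above background, catalytic subunits, all duplicates, and from other lists those past the threshold in a comparison with LID RNAi and otherwise the 2 with the largest differences. Further genes (ND-MLRQ, ND-ACP, ATPsynC, blw, sun and the members apart from all 4 controls) were named after their values were seen. Replicate numbers were not taken to pair the arrays. Alternatives changed 1 choice at a time: leaving out each array, a replicate block, renormalization by quantiles, subtraction of array medians, leaving out dim probe sets, the mean over a gene's probe sets, a trended and robust variance, array weights, and fitting only the 2 groups compared.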

Additional observations from a re-analysis of the deposited data

Results flagged for a closer look

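Results were looked at again where a probe set not used for a member's value read differently in LID RNAi and on the control arrays. A second probe set for COX7C read 5.76 and 5.92 on the arrays of GFP RNAi, 6.55 and 6.55 on those of LID RNAi and 5.14 and 5.68 on those of wild type. Both LID RNAi arrays lay above all 4 control arrays, 0.93 above their mean, where the probe set that stands for COX7C was 0.14 above GFP RNAi and 0.063 above wild type. Its difference did not pass in limma (adjusted p = 0.267 against GFP RNAi and 0.0718 against wild type). A second probe set for COX7B lay 0.11 above the mean of the 4 control arrays in LID RNAi, with the same order, and the probe set that stands for COX7B differed by 0.063 and 0.087 from the 2 controls. One more probe set for COX7B was within background on all arrays. Which transcripts these probe sets match was not tested.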

How the results depend on the processing

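The 2 arrays per group are the main limit. The 1 called value, SdhB against wild type, lost its call in 10 of 14 alternative settings. Its sign did not change, but several of these settings leave the difference as it is and could not reverse it. Of the alternative values of the counts and medians, 187 stayed within the spread or within 1.5 times the count and 48 did not. The 48 include those below, and the cause was not tested. Some of the 187 could not move: an array outside the 2 groups compared has no part in their difference. The members' median for LID RNAi minus GFP RNAi stayed at 0.057 without either wild type array. With any array left out, limma called fewer of all probe sets in each comparison, so counts past the threshold had little room to rise. The 187 therefore overstate how stable the values were.

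Members past the threshold for LID RNAi against wild type numbered 1, and 0 without any 1 array (0 to 0), with array medians subtracted, with array weights and with only the 2 groups fitted, but 2 (SdhB and ND-B16.6) of the 57 members left when dim probe sets were dropped and 2 with a trended and robust variance. The latter gave 1 against both controls, 1 (SdhB) between LID RNAi and GFP RNAi, and 2 for GFP RNAi against wild type. In the last of these array weights gave 1. Calls over all probe sets rose too. Between LID RNAi and wild type they rose from 439 of 18769 to 611 of 12912 without dim probe sets. With the trended variance they rose to 816 there and from 88 to 281 between LID RNAi and GFP RNAi. Between GFP RNAi and wild type they rose from 162 to 328, and to 265 with array weights. The added calls in single comparisons were thus not particular to the members. For SdhB against wild type the limma adjusted p was 0.0669 with medians subtracted, 0.0646 with array weights, 0.108 with 2 groups and 0.0106 with the trended variance, and against GFP RNAi it was 0.0482 with that variance.

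Deviations of arrays with the same replicate number correlated at r = 0.231, 0.025 and 0.234 across probe sets for the 3 pairs of groups, so the numbers were not taken to pair the arrays. With the replicate block 0 members passed for LID RNAi against wild type (SdhB adjusted p = 0.0916) and 0 in the other comparisons, as without it.

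With array medians subtracted, which moved the median of all probe sets to 0.044, 0.064 and 0.019 in the 3 comparisons, the members' medians were 0.093, 0.096 and -0.003. Those of complex I were then 0.075, 0.101 and -0.004, of complex II 0.103, 0.095 and -0.001 and of complex V 0.112, 0.095 and 0.006, and that of complex IV for LID RNAi against wild type was 0.098. Without dim probe sets, LID RNAi minus wild type was 0.055 in complex II and -0.015 in complex V.

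Leaving out 1 array gave members' medians from 0.035 to 0.088 against GFP RNAi and from -0.006 to 0.051 against wild type. For LID RNAi minus GFP RNAi the ranges were 0.035 to 0.06 in complex I, 0.036 to 0.078 in II, -0.002 to 0.172 in III, 0.03 to 0.128 in IV and 0.046 to 0.106 in V. For LID RNAi minus wild type they were -0.051 to 0.049 in II, -0.031 to 0.181 in III and -0.023 to 0.084 in IV, and for GFP RNAi minus wild type -0.062 to -0.025 in I and -0.1 to -0.029 in II. Counts of members above 0, an alternative chosen after seeing the data, ran from 47 to 58, 35 to 49 and 19 to 27. Of the core members of complex III, also counted after seeing the data, 2 of 4 were above 0 against wild type, but 4 without LID RNAi replicate 1 and with array medians subtracted, and 0 without LID RNAi replicate 2.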
